A study of Macaca fascicularis with 3 samples.

Results

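The miR-130 and miR-301 family comprised every listed mature miRNA whose name carries the stem miR-130a, miR-130b, miR-301a or miR-301b, with any arm suffix or none. In the deposited counts 6 of 432 mature miRNAs met this rule, namely mfa-miR-130a-3p, mfa-miR-130a-5p, mfa-miR-130b-3p, mfa-miR-130b-5p, mfa-miR-301a-3p and mfa-miR-301b. The species prefix is left off hereafter. The authors' deposited table pairs miR-301b with the human 3p arm, so 4 members are 3p arms and 2 are 5p arms. Small RNA came from the kidney cortex, which contains the filtering glomeruli and much of the tubule system, of 3 cynomolgus monkeys (Macaca fascicularis). The animals were naive and from 2 to 3 years of age, with 1 library per animal, and they formed a single group with no treated or mutant arm. The design therefore allows comparisons between miRNAs and between animals, and no comparison between conditions.

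A hairpin precursor yields a 5p and a 3p mature strand, and the strand that is loaded into an Argonaute protein pairs with target messages mainly through its seed, the bases near its 5′ end. The 3p strands of miR-130a, miR-130b, miR-301a and miR-301b share a seed, which miR-454-3p also carries, and these miRNAs are therefore predicted to bind overlapping sets of targets. The family is known as a repressor of PPARG, a nuclear receptor of adipocytes and vascular cells, and miR-130a is known from endothelial cells, where it represses the homeobox genes GAX (MEOX2) and HOXA5. In the human genome miR-130b lies beside miR-301b, and miR-301a beside miR-454, in introns of SKA2 in the latter case. Mature sequences and genomic positions were not used here.

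The total count over listed miRNAs lay between 3957188 and 4707892 per library, and 3 counts corresponded to between 0.637 and 0.758 CPM (counts per 1000000 listed counts). All 4 stems of a renal marker list (miR-204, miR-192, miR-215, miR-194) were listed, and together they took from 5.31% to 6.20% of the counts. Marker lists of vascular cells (7.17% to 8.52%), epithelium (1.63% to 2.09%), erythroid cells (0.437% to 0.576%) and leucocytes (0.152% to 0.173%) were present in every library, while the liver list took at most 8.82 CPM. The epithelial list had 3 of its 5 stems listed. The epithelial sum was lowest in animal 3 and the vascular and erythroid sums highest there, with and without TMM scaling. Names within each of these lists went both ways there on the log2 scale against the mean of the other animals. In the vascular list miR-145-5p lay at 0.86, miR-126 at 0.003 and miR-145-3p at -0.09. In the erythroid list miR-451 lay at 0.52 and miR-144 at -0.53. In the epithelial list miR-200a-5p lay at 0.83 and miR-200a-3p at -0.22. The library of animal 3 stood apart over the whole table: 16.9% of 391 miRNAs lay at -1 or below there on the log2 scale against the mean of the other animals (a pseudocount of 1 CPM added), against 5.37% in animal 1 and 1.79% in animal 2. Results on the family are therefore given with and without that library.

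The family was a minor part of the miRNA content of the cortex. Summed over members, the counts were 2119, 2937 and 1390 in the libraries of animals 1, 2 and 3, or 492, 624 and 351 CPM. The mean share was 0.0489% ± 0.0136 (SD, n = 3). Animal 1 had 0.0492% (95% Wilson interval 0.0472 to 0.0514), animal 2 had 0.0624% (0.0602 to 0.0647) and animal 3 had 0.0351% (0.0333 to 0.0370). The intervals did not overlap, so the libraries differed by more than counting error, with animal 2 highest and animal 3 lowest. Without animal 3 the mean share was 0.0558%. miR-301a-3p and miR-130a-3p supplied 54.3% and 36.0% of the summed family counts, and the remaining 4 names together supplied the rest.

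Of the 6 members, 4 had 10 or more counts in every library, beside 81.9% of all listed miRNAs. The exceptions were miR-130b-3p, with 1 count in animal 3, and miR-301b, with 5 counts in animal 2 and 6 in animal 3.

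miR-301a-3p had the highest mean of the 6 members and the smallest SD between animals on the log2 scale. It had 1025, 1363 and 1115 counts in animals 1, 2 and 3. Scaled by the trimmed mean of M values (TMM), a factor that aligns the bulk of miRNAs between libraries, these were 235, 275 and 300 CPM, a mean of 270 ± 32.4 (SD, n = 3). The animals lay close together, and the highest exceeded the lowest 1.27-fold. Its mean CPM over listed counts, 270, placed it at rank 133 of 432, between miR-28-3p (282) and miR-136 (246). The other arm of this hairpin was not among the listed names.

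miR-130a-3p, the strand of the miR-130a hairpin described from endothelium, was far lower in 1 of the 3 animals. It had 804, 1360 and 154 counts in animals 1, 2 and 3, or 185, 275 and 41.4 TMM-scaled CPM, a mean of 167 ± 118 (SD, n = 3). Animal 3 was low and the other animals were high. Animal 3 stood at 0.224 of animal 1 (exact 95% interval 0.187 to 0.267) and at 0.151 of animal 2 (0.127 to 0.178), intervals that cover counting error only. Between animals 1 and 2 the span was 1.49-fold. In mean CPM over listed counts it held rank 153, at 172, with miR-182 (172) directly above and miR-542-3p (171) directly below.

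The opposite strand of the same hairpin, miR-130a-5p, varied far less between the 3 libraries. It had 107, 90 and 82 counts in animals 1, 2 and 3, or 24.6, 18.2 and 22.0 TMM-scaled CPM, a mean of 21.6 ± 3.23 (SD, n = 3). Animal 3 lay between the other animals, at 1.21 of animal 2 (exact 95% interval 0.888 to 1.65) and at 0.896 of animal 1 (0.664 to 1.21). Animal 2 stood at 0.739 of animal 1, with an interval of 0.552 to 0.988. Its rank by mean CPM over listed counts was 263, between miR-148a-5p (21.7) and miR-1277 (21.3).

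miR-130b gave few counts on both strands. miR-130b-5p had 106, 79 and 32 counts in animals 1, 2 and 3, or 24.4, 16.0 and 8.60 TMM-scaled CPM, with animal 1 highest and animal 3 lowest. Its mean was 16.3 ± 7.88 (SD, n = 3), and its rank by mean CPM over listed counts was 276, between miR-29b-1-5p (16.5) and miR-143-5p (16.1). miR-130b-3p had 61, 40 and 1 counts, or 14.0, 8.08 and 0.269 TMM-scaled CPM, a mean of 7.45 ± 6.89 (SD, n = 3). The single count in animal 3 put it at 0.0192 of animal 1, with an exact 95% interval from 0.000478 to 0.111, and at 0.0333 of animal 2, with an interval from 0.000822 to 0.196. Animal 3 was thus low for both strands of this hairpin, and how far the 3p strand lay below the others was poorly resolved at this depth. It ranked 319, between miR-9-3-3p (7.78 CPM over listed counts) and miR-577-5p (7.60).

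miR-301b, the neighbour of miR-130b in the human genome, was close to the floor of the table. It had 16, 5 and 6 counts in animals 1, 2 and 3, or 3.68, 1.01 and 1.61 TMM-scaled CPM, with animal 1 highest. Its mean of 2.10 ± 1.40 (SD, n = 3) placed it at rank 396 by CPM over listed counts, with miR-127-5p (2.13) above and miR-129-2-3p (2.09) below. Animal 3 stood at 0.439 of animal 1, and the exact 95% interval of 0.141 to 1.18 included equality. Animal 2 stood at 0.275 of animal 1, with an interval of 0.0787 to 0.785 below 1.

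**Figure D1:**
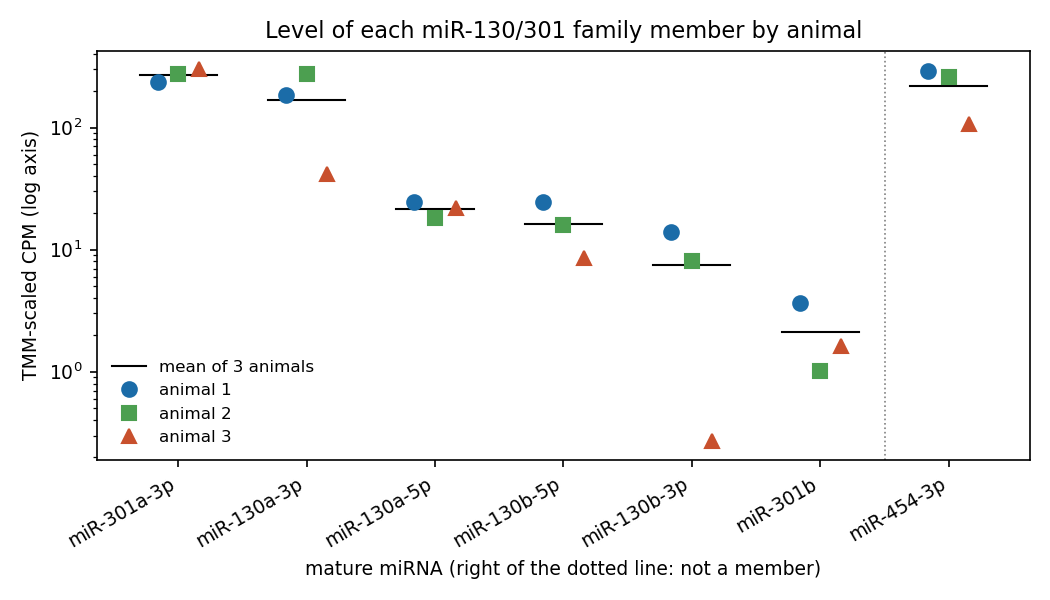
TMM-scaled CPM (log axis) of the 6 family members and of miR-454-3p, which carries the same seed, in animals 1 (circles), 2 (squares) and 3 (triangles), with the mean of 3 animals as a black line. The points of miR-301a-3p lie between 235 and 300 CPM, while for miR-130a-3p animal 3 lies at 41.4 CPM below 185 and 275 CPM in the other animals.

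The order of the members within a library needs no scaling between libraries, and its neighbours were compared inside each animal on log2(CPM + 1). miR-301a-3p exceeded miR-130a-3p in 3 of 3 animals, but by differing amounts. In animal 2 the 1363 and 1360 counts were nearly equal, the count ratio of animal 1 was 1.27 and that of animal 3 was 7.24. The mean log2 difference was 1.06 ± 1.54 (SD), a mean smaller than its spread over animals. Setting a mean beside its SD describes 3 animals and is no test of an order. miR-130a-3p exceeded miR-130a-5p by 7.51, 15.1 and 1.88 times, a mean log2 difference of 2.53 ± 1.51 (SD) that was larger than its spread. miR-130a-5p and miR-130b-5p were nearly level in animals 1 and 2, with ratios of 1.01 and 1.14, and apart in animal 3, with a ratio of 2.56. Their mean log2 difference of 0.48 ± 0.68 (SD) lay within the spread. Without animal 3 the mean log2 difference was 0.18 for miR-301a-3p over miR-130a-3p and 0.10 for miR-130a-5p over miR-130b-5p.

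miR-130b-5p exceeded miR-130b-3p in 3 of 3 animals, with count ratios of 1.74, 1.98 and 32.0 and a mean log2 difference of 1.51 ± 1.17 (SD), or 0.83 without animal 3. At the lower end, miR-130b-3p exceeded miR-301b in animals 1 and 2 and fell below it in animal 3, where they had 1 and 6 counts, a mean log2 difference of 0.96 ± 1.72 (SD), or 1.94 without animal 3. The exact two-sided sign-flip permutation test gave p = 0.25 for the first 4 of these 5 neighbouring pairs (Benjamini-Hochberg adjusted 0.313), the smallest that 3 animals allow, and p = 0.5 for the last pair (adjusted 0.5). The design thus cannot reach 0.05 for an order of members.

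Whether counts differed between libraries beyond counting error was tested with chi-square tests of homogeneity, taking TMM-scaled library sizes as the expectation, for every name averaging 10 or more counts, with Benjamini-Hochberg adjustment over all of them. The test compares the 3 libraries and not conditions. It called 4 of the 5 members tested at an adjusted p below 0.05, beside 80.6% of all 391 miRNAs tested, so the family's count was near the background. The adjusted p was 2.14e-141 for miR-130a-3p, 5.87e-11 for miR-130b-3p, 2.09e-07 for miR-301a-3p and 4.95e-07 for miR-130b-5p. For miR-130a-5p it was 0.121. miR-301b had a mean count of 9.0 and was not tested at that minimum; without a minimum its adjusted p was 0.0201.

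By the same test without animal 3, 5 of 6 members were called, beside 59.2% of 400 miRNAs, and miR-130a-5p at an adjusted p of 0.0567 was not. The added member, miR-301b, reached the minimum mean count only through its 16 counts in animal 1, against 5 in animal 2. Its call rests on the same counts, so 5 of 6 cannot be set against the 4 of 5 above. miR-130a-3p, higher in animal 2 than in animal 1, had an adjusted p of 1.15e-18 in the test without animal 3. The call on miR-301a-3p rested on animal 1, since its adjusted p was 0.0529 when that animal was left out of the chi-square test.

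Differences were next described by their size. The highest animal exceeded the lowest more than 2-fold in 3 of the 5 members tested, beside 39.9% of the 391 miRNAs. These members were miR-130b-3p, miR-130a-3p (6.64-fold) and miR-130b-5p (2.83-fold). Without animal 3, 0 of the same 5 spanned more than 2-fold, beside 8.95% of all, whereas miR-301b, which is not among the 5, spanned 3.64-fold between animals 1 and 2. The median SD of log2(TMM-scaled CPM + 1) over animals was 0.70 for the 5 members and 0.38 for all 391 miRNAs. miR-130b-3p (1.88) and miR-130a-3p (1.42) had a larger SD than 97.7% and 94.9% of the miRNAs, whereas miR-301a-3p (0.18) exceeded only 16.1% and miR-130a-5p (0.21) only 22.0%.

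The position of animal 3 was then expressed as the log2 difference of its TMM-scaled CPM + 1 from the mean of animals 1 and 2. Among the 5 members tested, 3 lay at -1 or below and 0 at 1 or above, beside 16.9% and 5.37% of the 391 miRNAs. miR-130b-3p lay at -3.20, miR-130a-3p at -2.42 and miR-130b-5p at -1.11. miR-301a-3p lay at 0.23 and ranged from 0.05, with the authors' deposited signal, to 0.28 over the alternatives. miR-130a-5p lay at 0.06 and ranged from -0.12 to 0.10 over the alternatives, so its direction was not fixed. For animals 1 and 2 the reference includes animal 3. In animal 2 miR-130a-3p (1.64) and miR-130b-3p (1.06) lay at 1 or above, 2 of the 5 members beside 6.91% of the miRNAs. In animal 1 only miR-130b-3p (2.15) did, beside 8.95%. There miR-130b-5p fell just short at 0.99 and ranged from 0.80 to 1.05 over the alternatives, so that count turned on the setting. Over the alternatives miR-130b-3p ranged from 0.39 to 1.84 in animal 2 and from 1.20 to 3.02 in animal 1. The median in animal 3 was -1.11 for the 5 members and -0.01 for all 391 miRNAs. Under other scalings and pseudocounts the difference of miR-130a-3p ranged from -2.60 to -2.31, that of miR-130b-3p from -4.86 to -1.58 and that of miR-130b-5p from -1.28 to -0.87, the last value being that with a pseudocount of 5 CPM. With library totals alone the median of all 391 miRNAs in animal 3 moved to -0.14. With the authors' deposited signal, which is not divided by the library total, it moved to -0.19. The wide range of miR-130b-3p goes with its single count in animal 3. Both strands of miR-130b and the 3p strand of miR-130a were low in the library of animal 3. Of the 34 names on the 8 marker lists, 1 lay at -1 or below there, the renal miR-204-3p at -4.10, beside 16.9% of the 391 miRNAs. The lists include names under the mean count of 10, such as miR-429-5p and miR-200c-5p, so these sets are not alike. The medians of the lists ran from -0.70 (liver, a single name) to 0.70 (muscle). The muscle sum did not follow its median, at 555, 380 and 386 TMM-scaled CPM in animals 1, 2 and 3. Names of that list went both ways in animal 3, with miR-1-3p at -0.33 and miR-133b-3p at 0.82. The part of other cell types in the result was not tested. In bulk tissue fewer cells of a type and less RNA per cell cannot be told apart, and animal and library preparation cannot be told apart either with 1 library per animal.

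**Figure D2:**
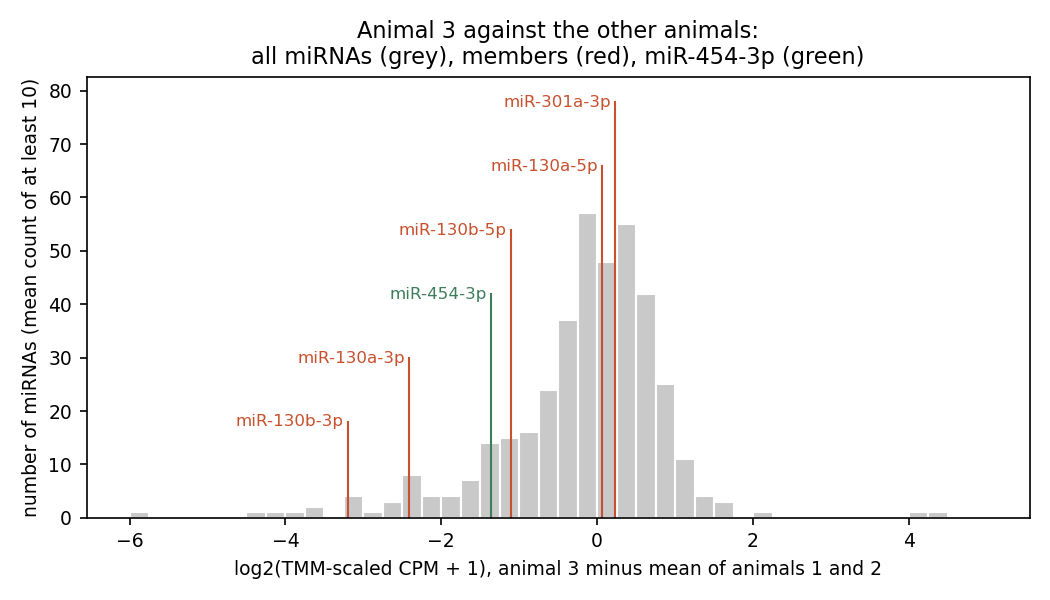
Histogram of the log2 difference of animal 3 from the mean of animals 1 and 2 (x axis, on TMM-scaled CPM + 1) over the 391 tested miRNAs (y axis, number of miRNAs), with vertical lines at 5 members and at miR-454-3p, their heights set only for legibility. miR-130b-3p at -3.20 and miR-130a-3p at -2.42 lie in the left tail, and miR-301a-3p at 0.23 lies in the centre.

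The arms of the miR-130 hairpins were compared within each library. In miR-130a the 3p strand dominated in every animal. Of the counts of both arms it held 88.3% for animal 1 (804 of 911, 95% Wilson interval 86.0 to 90.2), 93.8% for animal 2 (1360 of 1450, 92.4 to 94.9) and 65.3% for animal 3 (154 of 236, 59.0 to 71.0). The mean was 82.4% ± 15.1 (SD, n = 3), and the 3 intervals did not overlap. In miR-130b the 5p strand dominated in every animal. The 3p strand held 36.5% for animal 1 (61 of 167, 29.6 to 44.1), 33.6% for animal 2 (40 of 119, 25.8 to 42.5) and 3.03% for animal 3 (1 of 33, 0.537 to 15.3). Here the intervals of animals 1 and 2 overlapped and that of animal 3 lay below both, with a mean of 24.4% ± 18.6 (SD, n = 3). Without animal 3 the means were 91.0% for miR-130a and 35.1% for miR-130b. In the counts, the closely related hairpins miR-130a and miR-130b thus had opposite dominant arms in all 3 animals. None of their intervals, which cover counting error only, crossed 50%. Whether strands differ in how well a library captures them was not tested.

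Both hairpins had their lowest 3p share in animal 3. The log2 ratio of 3p to 5p counts (0.5 added to each) in animal 3, taken against the mean of the others, was -2.50 for miR-130a and -3.55 for miR-130b. A difference of -1 or below was found for 2 of these 2 hairpins, beside 23% of the 122 hairpins with both arms listed and a mean of at least 10 counts for both arms together. Arm ratios in animal 3 moved both ways over the 122 hairpins, with 28 at -1 or below and 23 at 1 or above. The value of miR-130b rests on 1 count of its 3p strand in animal 3. The range of this ratio over animals was 3.00 for miR-130a and 3.65 for miR-130b, ranks 15 and 10 of the 122, whose median range was 1.20. Without animal 3 the range was 1.01 for miR-130a and 0.18 for miR-130b, beside a median of 0.47.

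**Figure D3:**
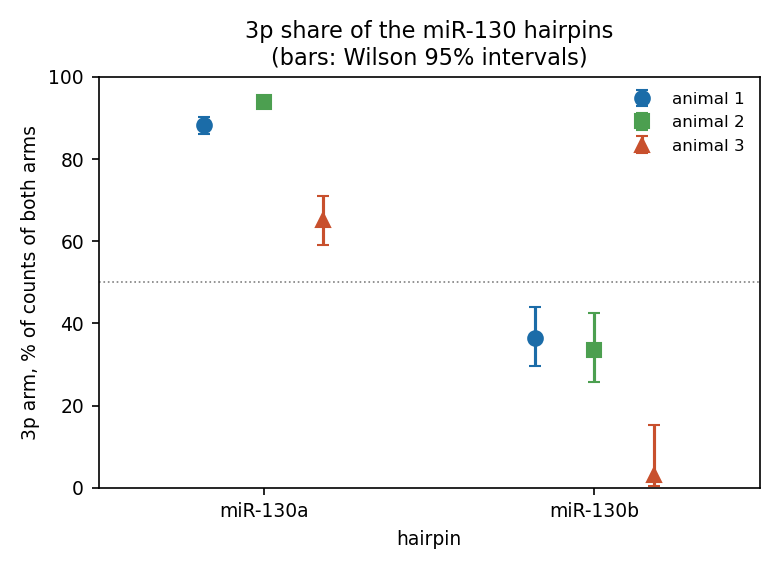
Share of the 3p arm in the counts of both arms (y axis, percent) for the hairpins miR-130a and miR-130b in animals 1 (circles), 2 (squares) and 3 (triangles), with Wilson 95% confidence intervals as bars and a dotted line at 50%. All miR-130a points lie above 50% and all miR-130b points below it, and animal 3 is lowest in both, at 65.3% and 3.03%.

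Since the 3p strands of the family share their seed with miR-454-3p, the 5 listed names of that seed were also summed. miR-454-3p had 1274, 1291 and 397 counts in animals 1, 2 and 3, or 293, 261 and 107 TMM-scaled CPM, and was low in animal 3 (log2 difference -1.36, chi-square adjusted p 7.12e-75). miR-301a-3p, from the hairpin that neighbours miR-454 in the human genome, lay at 0.23 in the same animal. Together the 5 names had 739, 862 and 423 CPM over listed counts. The part of miR-301a-3p in this sum was 32.2% for animal 1 (95% Wilson interval 30.6 to 33.9), 33.6% for animal 2 (32.1 to 35.0) and 66.6% for animal 3 (64.4 to 68.9). miR-130a-3p made up 25.3%, 33.5% and 9.21%, and miR-454-3p 40.1%, 31.8% and 23.7%. In animals 1 and 2 none of the names reached 50% of the sum, while in animal 3 miR-301a-3p held most of it.

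**Figure D4:**
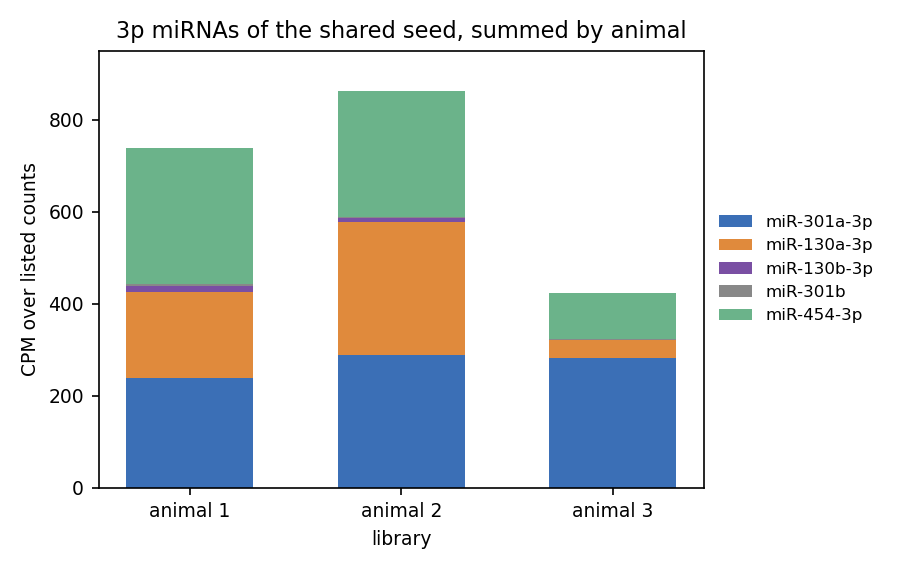
Stacked CPM over listed counts (y axis) of the 5 listed 3p miRNAs of the shared seed in each library, with 1 colour per miRNA. The stacks reach 739, 862 and 423 CPM in animals 1, 2 and 3; the miR-301a-3p part stays between 238 and 290 CPM while the miR-130a-3p and miR-454-3p parts are shortest in animal 3.

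The miRNAs whose profile over the 3 animals was most like that of a member were found by Euclidean distance of log2(TMM-scaled CPM + 1), centred on each miRNA's mean, among the 259 names with a mean count of at least 100. Those nearest to miR-301a-3p were miR-17-5p (distance 0.0349), miR-660-5p (0.0472) and miR-29b-3p (0.0558), beside a median distance of 0.518 over all names outside the family. The nearest to miR-130a-3p were miR-23b-3p (0.312), miR-23a-3p (0.458) and miR-103-3p (0.526), beside a median of 2.06. miR-23b-3p had 78233, 97506 and 12721 counts in animals 1, 2 and 3, the same order as miR-130a-3p at a far higher level. The distance between miR-130a-3p and miR-130b-3p was 1.12, and between miR-130a-3p and miR-301a-3p 2.18. With 3 animals these distances describe the libraries and carry no test.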

How the data were processed

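Small RNA of 3 kidney cortex samples was sequenced, 1 library per animal. Per the labels' protocols, 25 to 30 mg of frozen tissue was extracted, small RNA was enriched from 5 µg of total RNA, and libraries were made from 12 ng with a Total RNA-Seq kit and custom barcode primers. No molecular identifiers are described, so the intervals, and the 3-count floor, take in counting error alone. Per the file headers, the authors' raw counts are reads mapped to M. fascicularis miRNAs with 0 mismatches, and names with fewer than 15 reads were dropped. No listed name summed to less than 15. The aligner, the miRNA release and the treatment of reads matching several names are not given in the sources used here, so reads of near-identical members could be divided between names. Per the file headers, edgeR gave the authors' normalized signal. In each library 100% of its values equalled the raw count times 1 factor, within rounding, and that factor times the TMM factor computed here was 1.00 in each library. It served only as an alternative scaling.

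CPM was computed over listed counts. TMM factors from edgeR 4.0.16 in R 4.3.3, over all 432 names, were 1.01, 1.05 and 0.940. The chi-square test with scipy 1.17.1 used names with a mean count of at least 10 and an adjusted threshold of 0.05. It was run on simulated data that held counting error and changes placed in library 3. That run does not cover other variation between libraries. DESeq2 1.42.0 size factors, library totals, other count minimums, other pseudocounts and leaving out each animal were the alternatives. The miRNAs named are the members, names sharing or overlapping their seed, the 3 nearest profiles of each member with a mean count of at least 100, and the names ranked next to each member. Marker lists were renal, vascular, epithelial, erythroid, leucocyte, muscle, liver and neuron. The members and lists were chosen with earlier results of these data known. The deposited sum and average columns were not used.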

Additional observations from a re-analysis of the deposited data

How the results depend on the processing

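Adding miR-454 raised the family share from 0.0489% to 0.0713%, and a minimum mean count of 100 lowered the members called from 4 to 2, since only miR-130a-3p and miR-301a-3p reach it. The other 51 recalculated values of the family share, the calls, the order of members and the 3p shares kept their direction, and shares stayed within 1 SD over animals and counts of calls within 1.5 times. A mean over 3 animals cannot move by 1 SD when 1 is left out, so those values do not measure stability. Over all names the calls numbered 315, and 237 without animal 3. No paired analysis was possible because all libraries belong to 1 group, so no replicate number joins samples of different groups; members were compared within animals. Depth limits miR-130b-3p and miR-301b most, with 1 and 6 counts in animal 3.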

Other observations

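The miR-19 and miR-148/152 families have seeds that overlap the miR-130 seed when shifted, and were far more abundant. Their 5 listed names that are not 5p strands (miR-19a-3p, miR-19b, miR-148a-3p, miR-148b-3p and miR-152-3p) summed to 24008, 24911 and 24837 CPM over listed counts in animals 1, 2 and 3. This sum lacked the low value in animal 3 of the sum over the 5 listed 3p names of the miR-130 seed (739, 862 and 423 CPM). Within the latter sum miR-301a-3p itself was not low there, at a log2 difference of 0.23. miR-19b, a member of the miR-17/92 cluster, had 68568, 83797 and 69704 counts, and its log2 difference in animal 3 was 0.20. The authors' deposited table pairs both miR-19a-3p and miR-19b with human miR-19a-3p. The muscle list ranged from 363 to 562 CPM over listed counts, the neuron list from 107 to 131 and the liver list from 4.04 to 8.82.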
